A study of Mus musculus with 2 samples.

Results

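The genes described here encode catalytic subunits and partner proteins of the ATP-dependent chromatin remodelling complexes. They were taken from the deposited peak annotation by gene symbol: the Smarca to Smarce genes, the Chd genes with a single-digit number, the Arid genes with an a or b suffix or none, Ino80 and its lettered subunits, Bptf, and Actl6a and Actl6b. Of 99782 annotated peaks, 296 were assigned to such a gene, and these peaks named 39 genes. GENCODE M21 holds 41 genes whose symbols match, of which 39 are protein-coding and the other two, Smarca5-ps and Smarce1-ps1, are pseudogenes. All but one of the protein-coding genes had an assigned peak, the exception being Smarcc2. Over the whole annotation, 15570 of 21951 protein-coding genes had one.

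The study mapped the binding of PARIS, a zinc-finger repressor of the KRAB family also called ZNF746, in untreated CamK-PARIS mice on the C57BL/6J strain, with the hippocampus as the tissue. CUT&Tag uses an antibody to tether the transposase Tn5 to chromatin, where it cuts nearby DNA and adds sequencing adapters. There was 1 library with an anti-FLAG antibody, meant to capture PARIS-bound chromatin. There was also 1 library with IgG as the negative control, and both had the same genotype. The labels give no age, no number of animals and no description of the transgene's promoter, and the design has no library from mice without the transgene. With 1 library per antibody there are no replicates, so no value has a replicate error and no condition was tested. The intervals given are 95% intervals (Wilson for shares, order-statistic for medians) and cover counting error over peaks or genes only. The sequencing depth is unknown.

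Remodelling complexes use ATP to slide, eject or exchange nucleosomes, which sets how accessible promoters and enhancers are. In the BAF (SWI/SNF) complexes either Smarca4 (BRG1) or Smarca2 (BRM) is the motor, and Arid1a, Arid1b or Arid2 decides which BAF subtype is built. When neural progenitors become neurons, Actl6a (BAF53a) gives way to Actl6b (BAF53b) within the complex. The ISWI motors Smarca1 and Smarca5 space nucleosomes, Chd3, Chd4 and Chd5 are the motors of NuRD, which couples remodelling to histone deacetylation, and Ino80 works on nucleosomes that hold the variant H2A.Z. The symbol rule also takes in genes that encode no subunit of these complexes: Smarcal1 is a DNA translocase of stalled replication forks, Smarcad1 a lone remodeller, and the Arid3, Arid4 and Arid5 genes encode DNA-binding proteins or members of other complexes.

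Each peak carries the authors' total signal and the authors' maximum signal, in their own units, and the stretch within the peak where the maximum lies. The maximum signal is used below as the height of a peak. The 6 highest peaks of the set are shown by their DNA, since these are the places where the anti-FLAG signal at remodelling genes was strongest. Each line gives 121 bases of the mm10 reference around the maximum, 5′ to 3′ on the strand of the gene, and the capitals mark the stretch of maximum signal that fell in the window.
Smarca2 (chr19:26604735-26604855, plus strand): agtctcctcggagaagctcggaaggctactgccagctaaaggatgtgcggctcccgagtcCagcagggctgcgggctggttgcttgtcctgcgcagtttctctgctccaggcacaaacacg
Smarcd3 (chr5:24623542-24623662, minus strand): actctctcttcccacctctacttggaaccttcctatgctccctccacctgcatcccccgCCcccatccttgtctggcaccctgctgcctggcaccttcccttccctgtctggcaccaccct
Chd9 (chr8:90829636-90829756, plus strand): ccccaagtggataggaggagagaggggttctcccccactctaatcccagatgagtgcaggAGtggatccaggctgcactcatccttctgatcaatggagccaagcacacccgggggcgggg
Arid1a (chr4:133754188-133754308, minus strand): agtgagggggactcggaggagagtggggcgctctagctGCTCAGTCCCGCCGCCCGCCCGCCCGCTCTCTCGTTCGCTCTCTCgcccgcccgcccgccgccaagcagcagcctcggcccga
Chd8 (chr14:52257773-52257893, minus strand): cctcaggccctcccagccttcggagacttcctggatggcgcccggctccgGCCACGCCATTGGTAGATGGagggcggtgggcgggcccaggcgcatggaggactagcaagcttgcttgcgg
Arid1b (chr17:5189861-5189981, plus strand): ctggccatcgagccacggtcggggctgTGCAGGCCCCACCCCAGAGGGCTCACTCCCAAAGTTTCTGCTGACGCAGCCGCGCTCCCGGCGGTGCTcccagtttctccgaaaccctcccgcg
These windows differed in composition. GC content was 75.2% at Arid1a, with 16 CpG dinucleotides, and 69.4% at both Chd8 and the Arid1b site. It was 62% at Smarcd3 with 1 CpG, and 60.3% at Chd9 with 2 CpG. The first 5 sites lay within 1 kb of an annotated transcription start site (TSS), and the Arid1b site lay in intron 4 of 18.

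Among the BAF genes, the motors Smarca2 and Smarca4 differed in how far their starts lay from a peak. Smarca2, on chromosome 19, held the highest peak of the whole set, at chr19:26604385-26605697, with a maximum signal of 783, a total signal of 292198 and a width of 1313 bp. By maximum signal this peak ranked 30 among all peaks, and it covered the start of the gene. The next peaks on either side reached 221 at chr19:26603529-26603719, 221 at chr19:26601438-26601770, 215 at chr19:26606172-26607077 and 215 at chr19:26607475-26608117. Smarca2 had 29 assigned peaks in all, of which 8 lay within 1 kb of an annotated TSS, 12 lay in the 173 kb gene body and 17 outside it. Smarca4, in a gene body of 88.1 kb on chromosome 9, had 1 assigned peak, at chr9:21669965-21670227 in intron 21 of 33, with a maximum signal of 150. The start of Smarca4 was 20136 bp from the nearest peak, which reached 85 and was assigned to Yipf2. So within this library the start of one BAF motor gene lay under one of its highest peaks, and the start of the other lay far from any peak.

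Both Arid1 genes had signal at their starts, and Arid1b also had it along its introns. Arid1a, the defining subunit of canonical BAF, had 4 assigned peaks, with a maximum signal of 384 and a total signal of 318010 at chr4:133753144-133755146. A second Arid1a peak, at chr4:133756566-133757317, reached 179 and covered the gene start. Arid1b, the alternative subunit to Arid1a, had 33 assigned peaks, more than any other gene of the set. The peak over its start, chr17:4993767-4995920, reached 223 and was the widest of the set at 2154 bp. Higher peaks lay inside the gene: 11 assigned peaks were placed in intron 4 of 18, among them maxima of 349 at chr17:5189742-5190611, 308 at chr17:5138661-5139122, 275 at chr17:5150850-5151062 and 250 at chr17:5197950-5198193. A further peak of 293 lay at chr17:5083932-5084234. In all 42 peaks overlapped the Arid1b body, 16 of them assigned to Ldhal6b, a gene downstream of Arid1b. Arid1b is 353 kb long, and its 11.9 peaks per 100 kb put it at the 77.3rd percentile of protein-coding genes. Arid2, which defines the PBAF subtype, had 4 assigned peaks of 82, 112, 129 and 134, none within 1 kb of a TSS. A peak of 220 assigned to 2610037D02Rik lay 1686 bp from the start of Arid2.

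**Figure D1:**
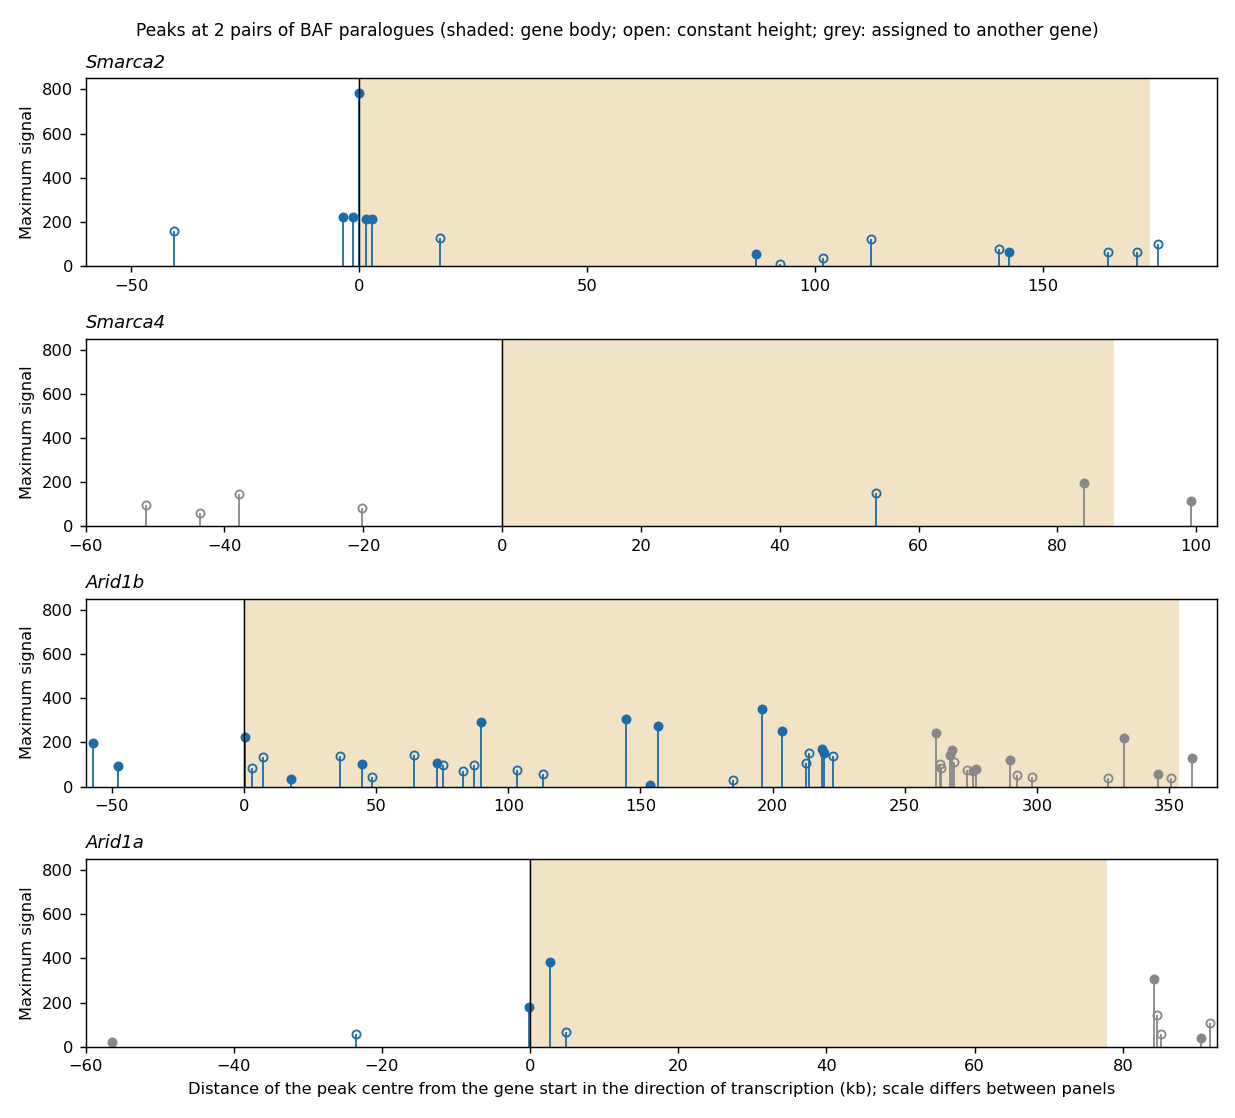
Peaks of the anti-FLAG library at Smarca2, Smarca4, Arid1b and Arid1a. The x axis is the distance of the peak centre from the gene start in the direction of transcription (kb, scale differing between panels), the y axis the maximum signal; shading is the gene body, open symbols are peaks of constant height and grey marks peaks assigned to another gene. Smarca2 has its peak of 783 at the start, Smarca4 has none within 20136 bp of its start, Arid1b has peaks of 250 to 349 along the body, and Arid1a has its peaks of 179 and 384 near its start and lower ones in its body and upstream.

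The Smarcd genes encode interchangeable BAF60 subunits. Smarcd3 (BAF60c), a form used in the neuronal and muscle lineages, had 11 assigned peaks, and its highest, chr5:24623355-24623954, reached 625 and lay 808 bp inside an annotated TSS. A second Smarcd3 peak near a TSS, chr5:24602540-24603639, reached 276. With 8 peaks in a body of 33.6 kb, Smarcd3 had 23.8 peaks per 100 kb, at the 90.7th percentile of protein-coding genes. Smarcd1 had 3 assigned peaks, the highest of 155 at chr15:99702035-99703521, over its start. Smarcd2 had 1, of 98, at chr11:106272491-106272985. The order by highest peak was thus Smarcd3, Smarcd1, Smarcd2, and without a second library the spread of these heights is not known.

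Both members of the pair exchanged at neuronal differentiation carried a peak at a TSS. At Actl6a it was chr3:32708510-32708664, with a maximum signal of 272, 19 bp from an annotated TSS and 2212 bp from the outermost start of the gene. At Actl6b it was chr5:137553144-137554232, with a maximum signal of 208, over the gene start. The core scaffold genes Smarcc1 and Smarcc2 encode BAF155 and BAF170. Smarcc1 had 7 assigned peaks, the highest of 212 at chr9:110131653-110132000, 101 bp upstream of an internal TSS and 13945 bp from the outermost start. Smarcc2 had none assigned, although a peak of 50 lay 689 bp from its start and peaks of 229, 108 and 105 overlapped its body, where they were assigned to Myl6. Smarcb1, another core subunit, had a single assigned peak of 41, at 2161 bp from a TSS, and Smarce1 a single peak of 77, at 13105 bp. Of the 14 BAF genes, 9 had an assigned peak within 1 kb of a TSS (64.3%, interval 38.8% to 83.7%). That interval holds the 42.5% of all protein-coding genes with such a peak. The 5 BAF genes without one were Arid2, Smarca4, Smarcb1, Smarcc2 and Smarce1. The BAF genes held 99 of the 296 peaks and 21 of the 34 that were among the highest 10% of all peaks, with 21.2% of the BAF peaks in that class (interval 14.3% to 30.3%). Of these 21, Arid1b gave 7 and Smarca2 gave 7, so that both genes together held most of them.

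Of the 3 ISWI genes, Bptf and Smarca1 had a peak within 1 kb of a TSS and Smarca5 had none. Bptf, the large reader subunit of the NURF complex, had 7 assigned peaks and its highest, of 210, at chr11:107130944-107132323 over the gene start. A peak of 338 inside the Bptf body, chr11:107034494-107034829, was assigned to 1810010H24Rik. Smarca1 (SNF2L), the ISWI motor of mature neurons, had 9 assigned peaks, with 140 at its TSS (chrX:47892010-47892704) and 265 in intron 5 of 23 (chrX:47882608-47883015). Smarca5 (SNF2H), its paralogue, had 3 assigned peaks of 112, 64 and 35, none in its body, and the nearest lay 2438 bp upstream of a TSS. As with the BAF motors, one ISWI motor had a peak at its TSS and the other did not.

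In the CHD family the highest peaks lay at Chd9, Chd8 and Chd2. Chd2, mutated in a childhood epilepsy, had 11 assigned peaks, of which chr7:73537311-73538520 reached 342 at 42 bp upstream of a TSS, while the others ranged from 10 to 134. Chd1, its paralogue, had a peak of 73 over its start, chr17:15704731-15705391, below others of the gene of up to 145. Of the NuRD motors, Chd3 had 3 peaks near a TSS, the highest of 130, and a peak of 310 at 2368 bp upstream of one (chr11:69371619-69372175). Chd5, the neuronal NuRD motor, had 13 assigned peaks, with 153 near a TSS and 271 in intron 2 of 41 (chr4:152349488-152350276), and 21.3 peaks per 100 kb of body, at the 89.0th percentile. Chd4 had no assigned peak within 1 kb of a TSS. Its 4 peaks reached 236 (chr6:125088884-125089690), 217 (chr6:125108319-125108797, in exon 16 of 39), 133 and 95.

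Chd6, Chd7, Chd8 and Chd9 each had a peak within 1 kb of a TSS. Chd8, a gene strongly associated with autism, had 2 assigned peaks, of 380 over its start (chr14:52257325-52258490, total signal 228568) and of 51. Chd9 had 11, the highest of 399 at 840 bp inside a TSS (chr8:90829511-90830008). Chd7, the CHARGE syndrome gene, had 27 assigned peaks with the highest of 167 at its TSS (chr4:8690909-8691730), and 13 of them lay in its body. Chd6 had 24 assigned peaks, with 46 at its TSS and its highest, of 183, at -232477 bp from the assigned TSS. Over these 4 genes, 78.1% of 64 peaks (66.6% to 86.5%) were of constant height, a form described below, against 63.3% of all annotated peaks. By gene these were 21 of 24 at Chd6, 22 of 27 at Chd7, 6 of 11 at Chd9 and 1 of 2 at Chd8.

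Among the INO80 genes, the motor Ino80 had a peak of 215 near its start (chr2:119476260-119476859). Ino80b had 1 assigned peak, of 154, over its start (chr6:83125205-83125825), and a peak of 480 that overlapped its body (chr6:83121439-83122600) was assigned to the adjacent Wbp1. Ino80e had 4 assigned peaks, with 184 (chr7:126857454-126858039) as the highest and 45 at its first TSS (chr7:126861346-126862351). A peak of 329 assigned to Hirip3 lay 490 bp from the start of Ino80e. Ino80d had 10 assigned peaks and 81 near a TSS. Ino80c had 7 assigned peaks, none in its body, and the nearest was 11793 bp upstream. At the compact genes of this group the assignment of a peak to one of several close starts decided which gene it was counted for.

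Of the genes outside the complexes, Arid3b had the highest peak, of 313 at its TSS (chr9:57836077-57837011). Arid3a had 3 peaks within 1 kb of a TSS, of 93, 116 and 154, all of constant height. Arid5b had 19 assigned peaks, with 112 near a TSS and its highest, of 221, at -4254 bp from one. Arid4a, Arid4b and Arid5a had no assigned peak within 1 kb of a TSS, but a peak of 132 over the start of Arid4a, chr12:71015357-71016582, was assigned to 3110056K07Rik. Smarcad1 had peaks of 156 and 88 at its TSSs, and Smarcal1 one of 82. Of the pseudogenes, Smarca5-ps had 1 assigned peak, of 146, at 22788 bp, and Smarce1-ps1 had none. No peak overlapped the body of either. Both are annotated as processed pseudogenes, and whether reads were split or misplaced between them and their parent genes was not tested.

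**Figure D2:**
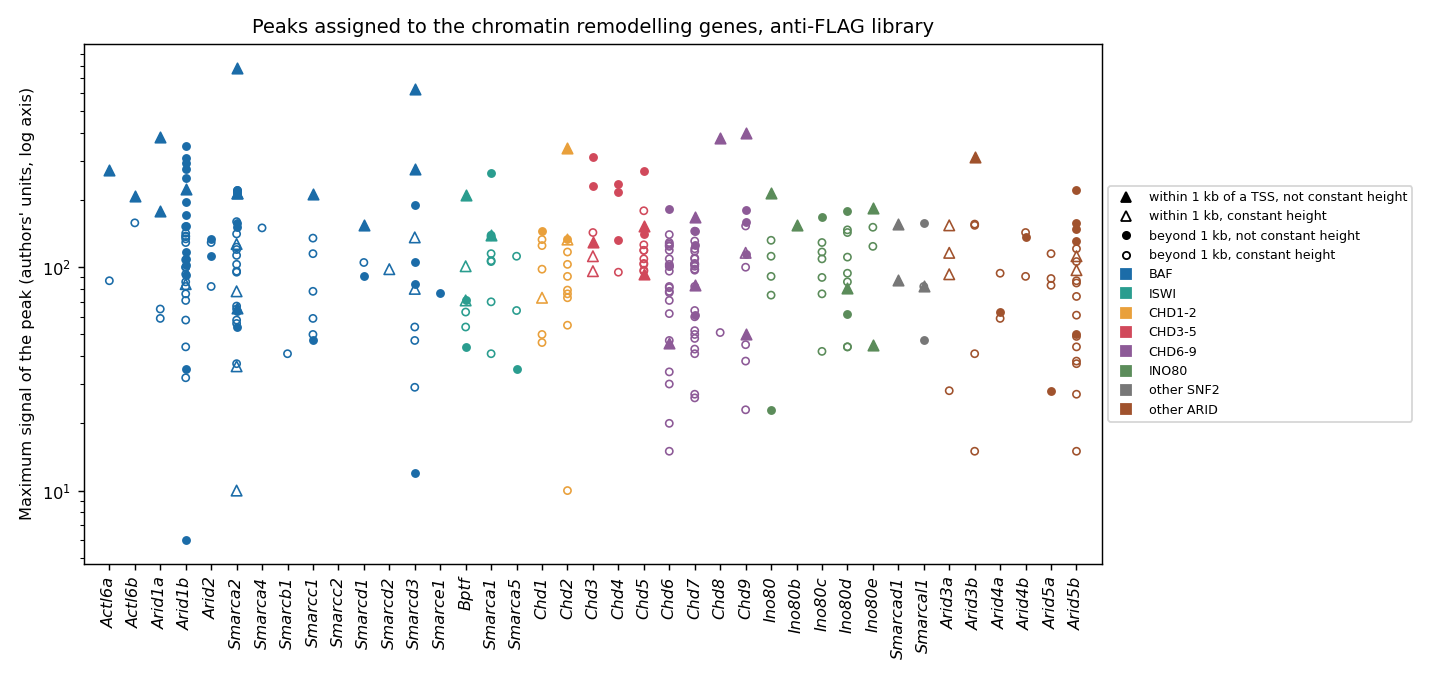
Maximum signal (y axis, log scale, authors' units) of every peak assigned to a chromatin remodelling gene in the anti-FLAG library (x axis, genes grouped and coloured by complex). Triangles are peaks within 1 kb of a TSS and filled symbols peaks not of constant height; the triangles of Smarca2 (783) and Smarcd3 (625) stand above all others.

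Counted over genes, 28 of the 39 protein-coding members had an assigned peak within 1 kb of a TSS, which is 71.8% (interval 56.2% to 83.5%), against 42.5% of all 21951 protein-coding genes. The distance is the one in the deposited annotation, from the region of maximum signal to the TSS of the assigned transcript. In descending order the 12 highest of these peaks were Smarca2 783, Smarcd3 625, Chd9 399, Arid1a 384, Chd8 380, Chd2 342, Arid3b 313, Actl6a 272, Arid1b 223, Ino80 215, Smarcc1 212 and Bptf 210. The highest peak near a TSS had a median of 176 over the 28 genes (interval 153 to 223), against 135 (133 to 137) over the 9135 protein-coding genes whose symbol matched a peak near a TSS. Smarca2 ranked 17 among those genes and Smarcd3 ranked 55, while Chd6, with 46, ranked 8546.

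The 11 protein-coding members without such a peak were Arid2, Smarca4, Smarcb1, Smarcc2, Smarce1, Smarca5, Chd4, Ino80c, Arid4a, Arid4b and Arid5a. When a peak edge within 1 kb of any GENCODE TSS of the gene was asked for, whatever gene the peak was assigned to, 30 of 39 genes had one (76.9%, 61.7% to 87.4%), against 47.5% of all protein-coding genes, and the added genes were Smarcc2 and Arid4a. Members had a median of 6 annotated TSSs and all protein-coding genes a median of 3. With 1 start per gene, the outermost, 27 of 39 members (69.2%, 53.6% to 81.4%) had a peak within 1 kb, against 39.3% of all, and 14 (35.9%) had their start inside a peak, against 20.4%. The share of members with a start near a peak was thus above that of all genes in each of these counts.

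**Figure D3:**
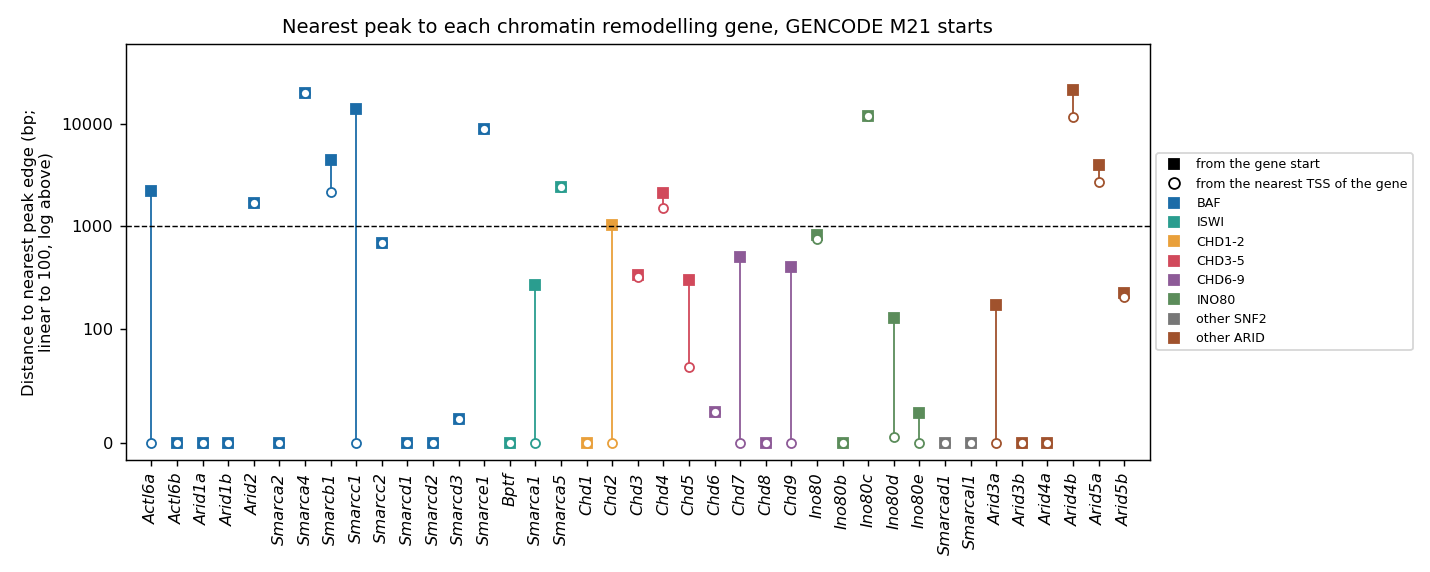
Distance in bp from each gene's outermost start (squares) and from its nearest annotated TSS (open circles) to the nearest peak edge, whatever gene the peak was assigned to; the y axis is linear to 100 and logarithmic above, genes are on the x axis by complex, and the dashed line is 1000 bp. Circles lie below the line for 30 of the 39 protein-coding genes, and Smarca4, at 20136 bp, is among the farthest above it.

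Peaks inside gene bodies followed the same direction, and so did gene length. A peak overlapped the body of 36 of 39 members (92.3%), against 63.0% of all protein-coding genes, with 220 such peaks in all, of which 34 were assigned to other genes. The members had a median length of 59.6 kb against 17.4 kb, and a median of 6.69 peaks per 100 kb of body against 3.95. The number of body peaks and gene length had a Spearman rho of 0.682 over the 39 genes and 0.655 over all protein-coding genes; genes share 1 library and are no independent replicates. The part of length in the counts was not tested. The 5 genes with the most assigned peaks, Arid1b, Smarca2, Chd7, Chd6 and Arid5b, held 132 of the 296 peaks, and the median was 4 peaks per gene (3 to 7), against 3 over all protein-coding genes with an assigned peak.

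**Figure D4:**
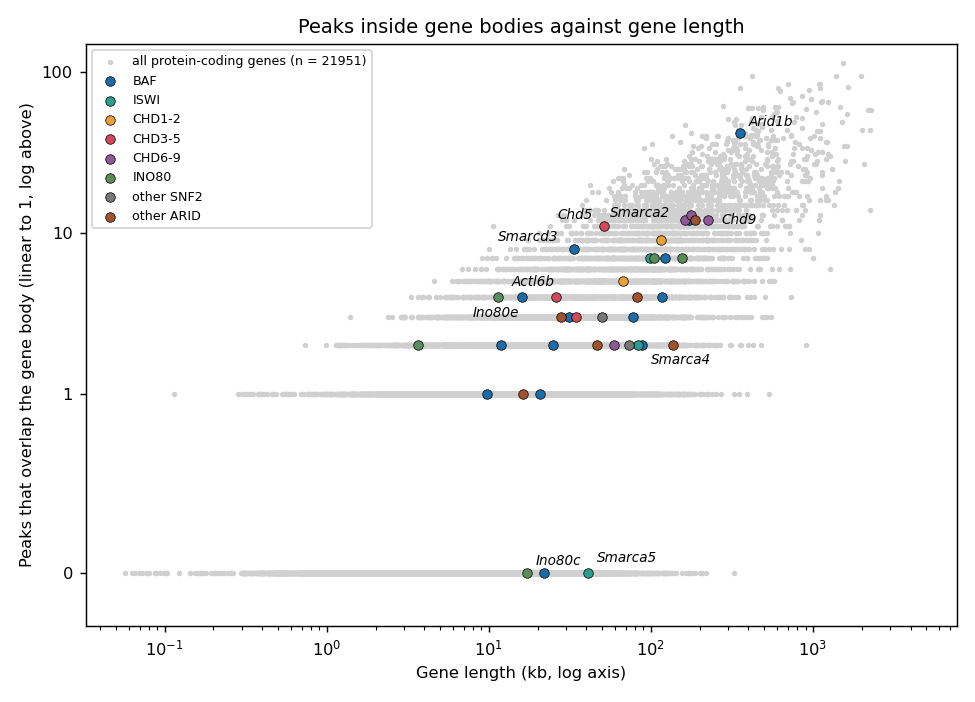
Number of peaks that overlap the gene body (y axis, linear to 1 and logarithmic above) against gene length in kb (x axis, log scale), with all 21951 protein-coding genes in grey and the chromatin remodelling genes coloured by complex. The coloured points lie within the grey cloud, with Arid1b at 42 peaks, Smarcd3 at 8 in 33.6 kb, and Smarca5 and Ino80c at 0.

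Counted over peaks, the set stood close to the whole list. Of the 296 peaks, 54 lay within 1 kb of a TSS (18.2%, 14.3% to 23%), against 15.3% of all annotated peaks, and 92 were placed in promoters (within 3 kb; 31.1%, 26.1% to 36.6%), against 24.6%. Introns held 103 (34.8%) and distal intergenic sequence 83 (28%), against 38% and 31.9% of all. The median maximum signal was 103 (96 to 109), against 101, and 34 peaks (11.5%, 8.34% to 15.6%) were among the highest 10%, which by ties holds 9.94% of all. The median width was 346 bp, against 363 bp. So the interval of the share within 1 kb held the value for all peaks, and that of the promoter share lay above it.

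Many peaks in the list are flat: their total signal is at least 99% of the maximum signal times the width. In such peaks the signal stays at or close to its maximum over nearly all bases. They are called peaks of constant height, and the files do not say how many fragments lie behind a peak. Of the member peaks 196 were of this form (66.2%, 60.7% to 71.4%), against 63.3% of all, and 100 were not. Near a TSS the flat form was rarer: 34 of 54 member peaks within 1 kb were not flat (63%, 49.6% to 74.6%), as were 66 of 242 farther away (27.3%, 22% to 33.2%). Over all peaks these shares were 55.5% and 33.3%. With flat peaks left out, 24 of the 39 genes kept a peak within 1 kb of a TSS (61.5%, 45.9% to 75.1%), against 28.3% of all protein-coding genes. The 4 genes whose peaks near a TSS were all flat were Smarcd2, Chd1, Arid3a and Arid5b. Of the 100 member peaks that were not flat, 34% (25.5% to 43.7%) lay within 1 kb of a TSS, against 23.2% of all such peaks.

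**Figure D5:**
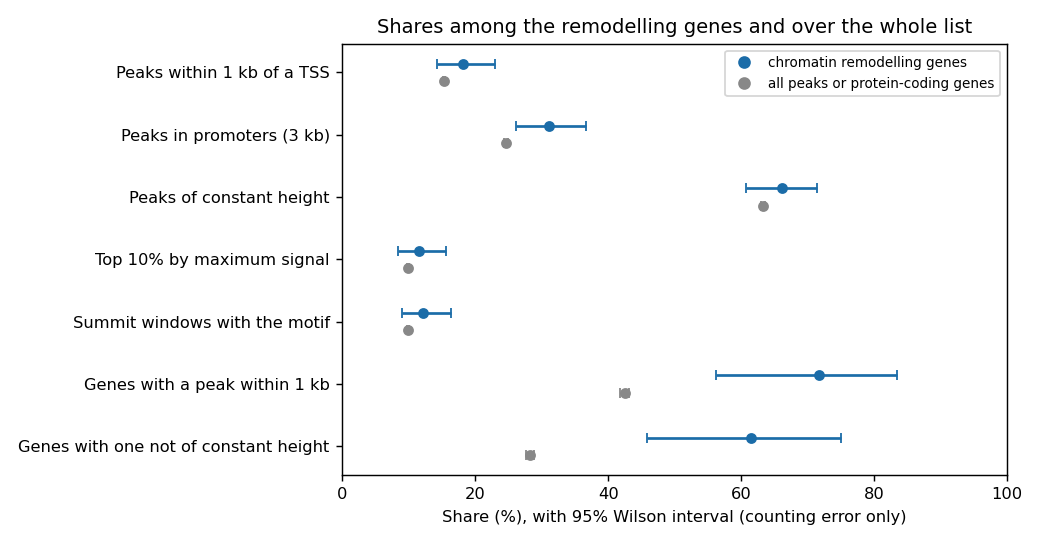
Shares (x axis, %, with 95% Wilson intervals for counting error) among the peaks and protein-coding genes of the chromatin remodelling set (blue) and over all annotated peaks or protein-coding genes (grey). The rows counted over peaks lie close to the grey points, whereas the rows counted over genes lie to the right: 71.8% against 42.5%, and 61.5% against 28.3% for peaks not of constant height.

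PARIS is known to bind insulin response sequences, and its reported element was searched as TATTTTT or TATTTTG on either strand in the 200 bp around each maximum. The letters were found in 36 of the 296 windows (12.2%, 8.92% to 16.4%), against 9.95% of all windows. Windows of the same size 1000 bp to either side held them in 12.2% at the members and in 13.6% over all peaks, so the centre of the member peaks held the letters no more often than the sequence beside it. Within 1 kb of a TSS 8 of 54 windows held them (14.8%, 7.7% to 26.6%), against 5.4% of all such windows, and the flanks of these member peaks also held them in 14.8%. The 8 windows belonged to Arid1a, Arid1b, Arid5b, Chd3 with 2, Chd9, Ino80b and Smarca2; the Smarca2 window was not that of its highest peak but of one of 36. Of the 36 peaks with the letters, 28 were of constant height, as were 7355 of the 9915 with the letters over all peaks. In RefSeq promoter windows (250 bases before to 50 after the start), 2 of 36 windows of 29 member genes held them (5.56%, 1.54% to 18.1%), against 11.3% of all 32851; these were Ino80b and a second start of Chd9. Examples are printed to show the letters in place, 5′ to 3′, with the match in capitals; CAAAATA is TATTTTG read on the other strand.
Arid1b, intronic (chr17:5138977-5139043, plus strand): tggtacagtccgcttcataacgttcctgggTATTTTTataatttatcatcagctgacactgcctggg
Arid1b, intronic (chr17:5084021-5084087, plus strand): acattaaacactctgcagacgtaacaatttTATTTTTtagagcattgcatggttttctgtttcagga
Arid1b, upstream (chr17:4937360-4937426, plus strand): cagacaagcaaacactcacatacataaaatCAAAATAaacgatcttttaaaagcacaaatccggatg
Chd3, at a TSS (chr11:69368799-69368865, minus strand): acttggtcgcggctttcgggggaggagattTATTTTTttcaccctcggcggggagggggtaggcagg
The first 3 lie in peaks of 308, 293 and 196. The Chd3 site lies in its peak of 130, whose maximum is 482 bp inside an annotated TSS. Its label, at a TSS, thus means within 1 kb of one. A match describes the letters only, and says nothing of which protein was there.

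The windows around the maxima were richer in GC than their flanks. GC content averaged 49.6% ± 9.89 (SD over 296 windows) at the members against 46.2% in the flanks, a difference of 3.38 percentage points, and the difference over all peaks was 3.44. In the member peaks that were not flat the difference was 7.16, against 5.85 over all such peaks. RefSeq promoter windows of the members averaged 63.5% GC, against 53.8% of all promoter windows, and the part of GC content in the counts near a TSS was not tested.

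Remodeller genes outside the symbol rule were counted in the same way, from lists of the other subunits. Of 55 such genes 40 had an assigned peak within 1 kb of a TSS (72.7%, 59.8% to 82.7%), a share close to that of the members. By complex these were 13 of 16 further BAF genes, 8 of 12 NuRD genes, 6 of 8 ISWI partners, 10 of 14 genes of INO80, SRCAP and TIP60, and 3 of 5 other SNF2 genes. The highest peaks were 481 at Rsf1, a partner of Smarca5, 477 at Gatad2b and 466 at Rbbp4 of NuRD, 445 at Srcap and 422 at Ep400, both motors of H2A.Z exchange complexes. Among the BAF subunits exchanged at neuronal differentiation, the neuronal forms Ss18l1 and Dpf1 had 255 and 210 near a TSS. The neuronal Dpf3 had 22 assigned peaks and none there, although a peak edge lay 778 bp from one of its TSSs. Of the other forms, Phf10 had 116 and Dpf2 had 114 near a TSS, and Ss18 had none there, so peaks near a TSS did not divide the neuronal forms from the others. The deacetylase gene Hdac1 had no assigned peak, and Hdac2 had 107 near a TSS.

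As a check of the tissue, markers of cell types were looked up in the same annotation; a peak marks anti-FLAG signal at a gene, not its expression. Within 1 kb of a TSS, 5 of 6 excitatory neuron genes and 5 of 6 interneuron genes had a peak (Neurod6 and Sst had none), as did 1 of 6 astrocyte, 2 of 6 oligodendrocyte, 2 of 6 microglia and 0 of 6 liver genes. Over all protein-coding genes this share was 42.5%. The intervals of 2 of 6 (33.3%, 9.68% to 70.0%) and 1 of 6 (16.7%, 3.01% to 56.4%) held that value. The interval of 5 of 6 (83.3%, 43.6% to 97%) began just above it, and that of 0 of 6 (0% to 39%) ended below it. At 4 of the 5 interneuron genes, Gad1, Pvalb, Slc32a1 and Vip, the highest such peak had a constant height. The same held for the excitatory gene Prox1, the astrocyte gene Aldh1l1 and the microglia genes Aif1 and P2ry12. It did not hold for the remaining markers with such a peak. The highest were 442 at Grin2b and 362 at Nrgn.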

How the data were processed

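CUT&Tag libraries (1 anti-FLAG, 1 IgG) came from CamK-PARIS hippocampus. Per the labels' protocols, the authors used Bowtie2 to align trimmed reads (mm10), filtered out duplicates and reads of low quality, and called SEACR peaks against IgG; versions, SEACR mode and stringency are not given in the sources used here. The deposited list gives total and maximum signal per peak, whole numbers whose scaling is not stated. The deposited annotation gives class, assigned gene and TSS distance; its tool is not given in the sources used here. It was joined to the list by region end and total signal (15 peaks lacked an annotation). IgG enters only through peak calling; its data were not analysed here.

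Gene starts and bodies came from GENCODE M21, sequence from GRCm38.p6, promoters from RefSeq on that build (29 member genes matched). Coordinates are 1-based. A peak was of constant height when total signal was at least 99% of maximum signal times width. Python 3.11.15, pandas 2.3.3, scipy 1.17.1 and pysam 0.24.0 were used; the counting code was tested on simulated data. Values were given for the 12 genes with the highest peak near a TSS, the 5 with most peaks, those without one near a TSS, and paralogue sets; other named peaks were chosen after their values were seen. Members and lists were chosen with earlier results of these data known. A result at a neighbouring gene is not reported here. Alternatives varied the peak subset, distances, filters and windows.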

Additional observations from a re-analysis of the deposited data

How the results depend on the processing

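Each of the 7 summary values was calculated again with changed settings, which gave 61 alternative values. Of these, 37 lay within the interval of the value in the report and 24 moved. A change of sign was possible only for the GC difference, because the other summary values are shares, counts or signal medians that cannot be negative. The GC difference stayed positive in each of its alternatives. Some alternatives kept only the 10% of peaks highest by maximum or by total signal. There, the share of member peaks within 1 kb of a TSS was 47.1% (31.5% to 63.3%) or 44.4% in place of 18.2%. Over all annotated peaks, 3208 of the 9919 highest by maximum lay within 1 kb of a TSS, against 15.3% of the whole list. The share of the 41 genes with a peak within 1 kb was 31.7% in both in place of 68.3%. The median number of assigned peaks was 0 in both in place of 4. For these counts over genes, fewer peaks enter by construction. The GC difference was 7.59 or 8.47 in place of 3.38. In those subsets the share of constant height was 0% or 2.78% in place of 66.2%. Over all annotated peaks, 13 of the 63156 of constant height were among the highest 10% by maximum signal. The median maximum signal in the highest by total was 209 in place of 103. The motif share in the highest by maximum was 8.82% in place of 12.2%. Without peaks of constant height the values were 34% within 1 kb, a median maximum signal of 153, a median of 2 peaks per gene, a motif share of 8% and a GC difference of 7.16. Among peaks above the median signal 53.3% were of constant height and 8.67% held the motif; among peaks of at least 200 bp, 54.6% were of constant height and 23.2% lay within 1 kb. The share near a TSS was 13.5% at 500 bp and 31.1% at 3 kb, and the motif share was 23% in 400 bp windows, which hold more bases by construction. The share within 500 bp cannot exceed that within 1 kb, and the share within 3 kb cannot lie below it. The median number of peaks per gene cannot rise when peaks are left out. The cause of the other moves was not tested. No paired analysis was possible because each antibody has 1 library, and no library could be left out. Depth and the number of fragments behind a peak are unknown.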
